A study of Mus musculus with 8 samples.

Results

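The Notch gene regions are the accessible chromatin regions, found by ATAC-seq, that overlap the bodies of 10 genes of the Notch pathway or the 20 kb upstream of them in the mouse genome (mm10). The 10 genes were the receptor genes Notch1, Notch2 and Notch3, the ligand genes Jag1, Jag2 and Dll1, the target genes Hes1 and Hey1, and the genes of the nuclear complex Rbpj and Maml2. Any peaks of the 8 libraries sharing 1 bp or more were joined to a region, which gave 69399 regions from 299328 peaks, and 75 regions with 353 peaks lay at the 10 genes. The cells were cutaneous squamous cell carcinoma (SCC) cells, driven by Ha-Ras, from K14CreER FAKflox/flox FVB mice that had undergone DMBA/TPA chemical carcinogenesis of the skin. Focal adhesion kinase (FAK, encoded by Ptk2) was deleted in culture with 4-hydroxytamoxifen, and all 4 lines carried this deletion. FAK-/- cells expressed no FAK construct. The other 3 lines were made from a FAK-/- clone by retroviral expression of wild-type FAK (FAK-WT), FAK with a mutated nuclear localization sequence (FAK-nls, with the substitutions R177A, R178A, R190A, R191A, R216A and R218A) or kinase-deficient FAK (FAK-kd, K454R). Each line had 2 libraries, and because each construct was represented by a single line, the effect of a construct and other differences between lines cannot be told apart. The study calls the libraries of a line biological replicates, and nothing in the labels states whether they came from separate cultures.

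Notch receptors are cut after binding a ligand on a neighbouring cell, and the released intracellular domain enters the nucleus. There it joins the DNA-binding protein RBPJ and a Mastermind-like coactivator to switch on target genes, of which those encoding the Hes and Hey families of transcriptional repressors are the best known. In the epidermis the pathway is known for promoting the differentiation of keratinocytes and for acting against tumour formation in the skin. Accessible chromatin at a gene is not a measure of its RNA, and no RNA was measured in these libraries.

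The peak lists held between 24383 peaks (FAK-nls replicate 1) and 53703 peaks (FAK-WT replicate 1) on chromosomes 1 to 19, X and Y. Both FAK-nls libraries had fewer peaks (24383 and 24959) than any other library (32938 to 53703). Read totals are not used here, so a region without a peak was not called, which does not show that it was closed. The comparisons of calls were therefore also made at equal peak number, in which a library was limited to its 24383 best peaks by -log10 p and regions were built anew, which left 46 regions at the Notch genes of 40309. Ranks given below count from 1 for the strongest peak of a library by -log10 p. The promoter of Ptk2 was called in all 8 libraries, which says nothing about the labels. Among promoters of cell type markers, 1 of 8 keratinocyte genes was called in all 8 libraries (Itga6) and 5 of 8 in none (Krt5, Trp63, Cdh1, Sfn and Krt15). Of 6 fibroblast genes 4 were called in all 8 libraries (Col1a1, Col1a2, Pdgfra and Pdgfrb) and 2 in none (Thy1 and Dcn). No immune or endothelial gene and 1 of 4 melanocyte genes (Pmel) was called in all 8 libraries. Over 21911 protein-coding genes 39.5% of promoters were called in all 8 libraries and 44.4% in none. Krt14 was called in 1 library and Itgb4 in 3, and the part of cell state in the results was not tested.

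The genomic sequence at 6 of the regions is shown because these regions carry the differences described below or are the strongest region of their gene outside promoters, and because their central 300 bases hold a match to a motif of RBPJ (GTGGGAA) or of AP-1 (TGACTCA), the dimer of Jun and Fos proteins. Each sequence is written 5' to 3' on the plus strand of mm10, and capitals mark the matches on either strand. Names give the distance of the region's centre from the 5' end of the gene. The Rbpj windows lie at chr5:53490753-53491052 (+24.8 kb, intronic), chr5:53463143-53463442 (-2.9 kb, upstream) and chr5:53543325-53543624 (+77.3 kb, intronic). The Notch1 windows lie at chr2:26494204-26494503 (+22.3 kb) and chr2:26507588-26507887 (+8.9 kb) and the Jag1 window at chr2:137083694-137083993 (+32.8 kb), all 3 in introns.
Rbpj +24.8 kb: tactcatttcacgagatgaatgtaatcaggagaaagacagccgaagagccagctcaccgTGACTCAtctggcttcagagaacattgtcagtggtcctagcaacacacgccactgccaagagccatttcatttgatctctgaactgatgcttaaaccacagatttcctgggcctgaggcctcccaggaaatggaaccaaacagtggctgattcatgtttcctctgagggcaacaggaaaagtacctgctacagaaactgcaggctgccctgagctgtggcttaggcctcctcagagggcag
Rbpj -2.9 kb: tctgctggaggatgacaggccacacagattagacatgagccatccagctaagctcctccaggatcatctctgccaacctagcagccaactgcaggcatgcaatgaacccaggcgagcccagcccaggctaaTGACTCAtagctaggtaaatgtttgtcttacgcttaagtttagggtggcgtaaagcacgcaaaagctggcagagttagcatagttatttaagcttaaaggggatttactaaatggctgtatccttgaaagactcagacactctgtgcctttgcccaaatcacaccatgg
Rbpj +77.3 kb: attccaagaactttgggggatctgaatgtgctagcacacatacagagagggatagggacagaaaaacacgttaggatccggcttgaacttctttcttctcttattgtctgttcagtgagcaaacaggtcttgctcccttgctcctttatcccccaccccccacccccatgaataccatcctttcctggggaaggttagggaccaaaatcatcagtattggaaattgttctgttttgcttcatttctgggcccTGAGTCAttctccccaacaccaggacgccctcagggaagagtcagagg
Notch1 +22.3 kb: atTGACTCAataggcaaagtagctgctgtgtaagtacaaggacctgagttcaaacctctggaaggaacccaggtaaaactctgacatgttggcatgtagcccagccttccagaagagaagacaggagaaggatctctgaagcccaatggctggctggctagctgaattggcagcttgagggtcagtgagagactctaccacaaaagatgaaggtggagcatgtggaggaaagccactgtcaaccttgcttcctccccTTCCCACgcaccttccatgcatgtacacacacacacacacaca
Notch1 +8.9 kb: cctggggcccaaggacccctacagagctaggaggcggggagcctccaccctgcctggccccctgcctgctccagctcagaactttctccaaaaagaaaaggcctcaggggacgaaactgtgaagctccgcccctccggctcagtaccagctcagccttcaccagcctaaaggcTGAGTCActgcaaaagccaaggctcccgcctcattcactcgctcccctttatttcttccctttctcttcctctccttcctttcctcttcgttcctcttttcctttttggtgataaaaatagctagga
Jag1 +32.8 kb: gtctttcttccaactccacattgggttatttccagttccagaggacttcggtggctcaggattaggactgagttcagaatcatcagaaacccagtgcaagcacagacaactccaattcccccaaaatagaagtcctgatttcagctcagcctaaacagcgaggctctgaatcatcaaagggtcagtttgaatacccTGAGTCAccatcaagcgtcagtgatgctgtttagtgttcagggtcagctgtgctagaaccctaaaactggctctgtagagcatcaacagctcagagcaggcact

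The AP-1 motif was found on either strand in the central 300 bases of 24 of the 75 Notch gene regions (32%), against 28.7% of all 69399 regions. The RBPJ motif was found in 4 of 75 (5.33%), against 6.49% of all regions, and 1 of these 4 was the promoter region of Hey1. The E-box CACGTG, bound by many basic helix-loop-helix proteins, was found in 7 of 75 (9.33%), against 5.03% of all regions. In the printed window with both motifs, Notch1 +22.3 kb, the matches did not overlap. There the called peak covered the AP-1 match in FAK-/- replicate 2 alone and the RBPJ match in FAK-WT replicate 1 and FAK-/- replicate 2, of 7 libraries with a call. The AP-1 match was covered in 2 of 3 libraries with a call at Notch1 +8.9 kb and in 3 of 4 at Jag1 +32.8 kb. At the Rbpj windows it was covered in every library with a call (8 of 8, 2 of 2 and 6 of 6 in the order printed). The median GC content was 48.7% both in the Notch gene regions and in all regions. A match describes the letters only and is not evidence of binding.

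Of the 3 receptor genes, Notch2 had the most accessible chromatin and its promoter was called throughout. Notch2 (chr3:98013527-98150361, plus strand) had 14 regions in its 156.8 kb window. Its promoter region (chr3:98013228-98014349) was called in all 8 libraries, also at equal peak number, with a fold enrichment of 4.76 and 4.42 in FAK-WT, 4.44 and 4.07 in FAK-/-, 3.98 and 4.11 in FAK-nls, and 5.10 and 4.96 in FAK-kd. Both FAK-kd libraries were the highest of the 8 and the FAK-nls libraries were among the 3 lowest. The strongest Notch2 region outside the promoter lay in an intron 43.4 kb from the 5' end (chr3:98056292-98057478) and was called in all 8 libraries, at ranks of 1915 and 6524 in FAK-WT, 1607 and 4503 in FAK-/-, 2285 and 8181 in FAK-nls, and 4082 and 4994 in FAK-kd. The ranks of the 4 lines overlapped. Notch2 had 10 and 10 called regions in FAK-WT, 12 and 11 in FAK-/-, 6 and 7 in FAK-nls, and 8 and 10 in FAK-kd. At equal peak number these numbers were 8 and 6, 8 and 10, 6 and 7, and 8 and 6, so that the FAK-nls libraries no longer stood apart.

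Notch1 (chr2:26457903-26516663, minus strand), the receptor best known in epidermal differentiation, had 6 regions. The region at its internal start (chr2:26503424-26503981, start at 26503822) was called in FAK-WT replicate 1, both FAK-/- and both FAK-kd libraries, at ranks of 53302, 35321, 20792, 31846 and 37565. It was not called in FAK-WT replicate 2 or in either FAK-nls library, and at equal peak number it remained in FAK-/- replicate 2 alone. The fold enrichment of the 5 calls was 3.04 ± 0.316 (SD, n = 5 libraries), and no peak was called at the start of the longest transcript (26516663). The best-ranked Notch1 region outside promoters was intronic (chr2:26493747-26494959, Notch1 +22.3 kb above). It was called in 7 libraries, at ranks of 12599 and 15996 in FAK-WT, 24142 and 23425 in FAK-/-, 21136 in FAK-nls replicate 2, and 14614 and 11841 in FAK-kd, and not in FAK-nls replicate 1. FAK-WT and FAK-kd libraries thus ranked it ahead of the others. The 2 FAK-nls libraries had 0 and 1 called Notch1 regions, against 3 to 5 in each of the other 6 libraries, and 0 and 1 against 2 to 3 at equal peak number. The share of all genes with such a gap is not given. In the exact permutation test described below, run on region counts, Notch1 had an unadjusted p of 0.143. In that test 0.832% of all genes were under 0.05.

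Notch3 (chr17:32120820-32166852, minus strand) had no called promoter in any library and 2 regions in all. Its intronic region (chr17:32160869-32161630, 5.6 kb from the start) was called in 7 libraries, at ranks of 8570 and 13501 in FAK-WT, 20550 and 24783 in FAK-/-, 19528 in FAK-nls replicate 1, and 19024 and 11080 in FAK-kd. FAK-nls replicate 2 lacked the call. The fold enrichment was 6.59 and 4.74 in FAK-WT against 4.02 and 3.50 in FAK-/-, so the libraries of these 2 lines did not overlap. The other Notch3 region was called in FAK-/- replicate 1 alone.

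Among the ligand genes, Jag1 (chr2:137081456-137116644, minus strand) was the one with a promoter called in every library. Its start-site region (chr2:137116638-137117681) had a fold enrichment of 3.72 and 3.67 in FAK-WT, 3.58 and 3.49 in FAK-/-, 4.12 and 4.06 in FAK-nls, and 3.35 and 4.00 in FAK-kd. The FAK-nls libraries were the highest of the 8, above a mean of 3.75 ± 0.283 (SD, n = 8 libraries). A second promoter region, in the intron 2.0 kb downstream (chr2:137114124-137115089), was also called in all 8 libraries, at a fold enrichment of 2.97 ± 0.171 (SD, n = 8 libraries) and ranks from 16825 to 32429. The +32.8 kb region printed above, with an AP-1 match (chr2:137083605-137084081), had ranks of 36171 and 21674 in FAK-WT, 35055 in FAK-/- replicate 1 and 43845 in FAK-kd replicate 2, and no call in the other 4 libraries.

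Jag2 (chr12:112907819-112929776, minus strand) and Dll1 (chr17:15367354-15376872, minus strand) had few regions of their own. No library had a call at the Jag2 promoter, and 2 of the 3 regions in its window were nearest to the start of Nudt14. The best-ranked of these (chr12:112941691-112942226), 152 bp from that start, had ranks of 23809 and 22952 in FAK-WT, 18020 in FAK-/- replicate 1, 17867 in FAK-nls replicate 1 and 29646 in FAK-kd replicate 2. The Dll1 promoter (chr17:15375742-15376609) was called in 3 libraries, FAK-WT replicate 1, FAK-/- replicate 1 and FAK-nls replicate 2, at a fold enrichment of 3.15 ± 0.0985 (SD, n = 3 libraries), and in none at equal peak number. The region called in all 8 libraries in the Dll1 window (chr17:15395758-15396685, ranks from 3179 to 8260) lay 19 bp from the start of Fam120b. Of the 75 regions, 19 were nearest to a protein-coding start of another gene, and the gene they act on is not known from these data.

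Rbpj (chr5:53466152-53657362, plus strand), which encodes the DNA-binding protein of the pathway, held the Notch gene region with the best median rank over libraries. This region (chr5:53490426-53491379, Rbpj +24.8 kb above) is intronic, holds an AP-1 match and was called in all 8 libraries, at ranks of 2494 and 564 in FAK-WT, 412 and 630 in FAK-/-, 2486 and 9165 in FAK-nls, and 769 and 1633 in FAK-kd. Its fold enrichment was 6.14 and 7.14 in FAK-WT, 7.35 and 6.73 in FAK-/-, 5.70 and 4.66 in FAK-nls, and 6.78 and 7.38 in FAK-kd. Both FAK-nls libraries were the lowest of the 8 in fold enrichment, whereas their ranks overlapped those of FAK-WT. In FAK-WT replicate 1, FAK-kd replicate 1 and both FAK-nls libraries a Notch2 or Maml2 region ranked ahead of this one. The promoter region of Rbpj (chr5:53588847-53590817) lay 123.7 kb into the annotated gene body, over 3 of its 4 protein-coding starts, and was called in all 8 libraries at a fold enrichment of 4.11 ± 0.297 (SD, n = 8 libraries). Rbpj had 18 regions, of which FAK-WT libraries had 13 and 11, FAK-/- libraries 12 and 10, FAK-nls libraries 6 and 7, and FAK-kd libraries 10 and 11. At equal peak number the numbers were 7 and 9, 9 and 9, 6 and 7, and 8 and 5.

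Maml2 (chr9:13297957-13709388, plus strand), which encodes a Mastermind-like coactivator, had the most regions, 23, and also the longest window (431.4 kb), so that its density of 5.33 regions per 100 kb was below the 8.52 of Rbpj and the 8.93 of Notch2. None of these regions lay at the 2 protein-coding starts used for promoters. A region centred 1.3 kb before the 5' end of the gene (chr9:13296267-13297079), chosen after its values were seen, was called in all 8 libraries, at ranks of 2488 and 3828 in FAK-WT, 3117 and 2597 in FAK-/-, 16108 and 6228 in FAK-nls, and 516 and 4245 in FAK-kd. Both FAK-nls libraries ranked it behind all others. The Maml2 region with the best median rank (chr9:13425109-13426035) lay in an intron, nearest to the protein-coding start of Gm17571. It was called at 5782 and 4843 in FAK-WT, 1490 and 2635 in FAK-/-, 6440 and 632 in FAK-nls, and 3276 and 1813 in FAK-kd. Here both FAK-WT libraries were behind every FAK-/- and FAK-kd library, and the 2 FAK-nls libraries were the last and the first of the 8.

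The targets Hes1 and Hey1, which encode basic helix-loop-helix repressors, differed in their promoters. Hey1 (chr3:8663359-8667256, minus strand) had a single region, at its start (chr3:8666774-8667826), which was called in all 8 libraries with a fold enrichment of 5.69 and 4.46 in FAK-WT, 5.40 and 4.26 in FAK-/-, 4.09 and 4.39 in FAK-nls, and 4.43 and 5.84 in FAK-kd. Both FAK-nls libraries were below both FAK-WT and both FAK-kd libraries in fold enrichment, although by as little as 4.39 against 4.43, and overlapped those of FAK-/-. The called length of this region was 986 and 1026 bp in FAK-WT, 639 and 758 bp in FAK-/-, 642 and 641 bp in FAK-nls, and 860 and 747 bp in FAK-kd. Both FAK-WT libraries were longer than all 6 others, as was the mean length of all their peaks. By rank, the FAK-nls libraries (14045 and 14130) were behind the other 6 (6901 to 12091). Hes1 (chr16:30064384-30067796, plus strand) also had a single region, at its promoter (chr16:30063516-30065421), with ranks of 39447 and 29706 in FAK-WT, 42365 in FAK-/- replicate 1, and 27435 and 28435 in FAK-kd. FAK-/- replicate 2 and both FAK-nls libraries had no call there. Only the peaks of FAK-WT replicate 2 and FAK-kd replicate 2 reached the promoter window, which began 500 bp before the start used (30065340). The peaks of FAK-WT replicate 1, FAK-/- replicate 1 and FAK-kd replicate 1 ended before it, at 30064394, 30064396 and 30064245. These libraries counted as called at the promoter only because overlapping peaks were merged. All 5 ranks were beyond 24383, so Hes1 had no region in any library at equal peak number, and at this depth its lines could not be compared.

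**Figure D1:**
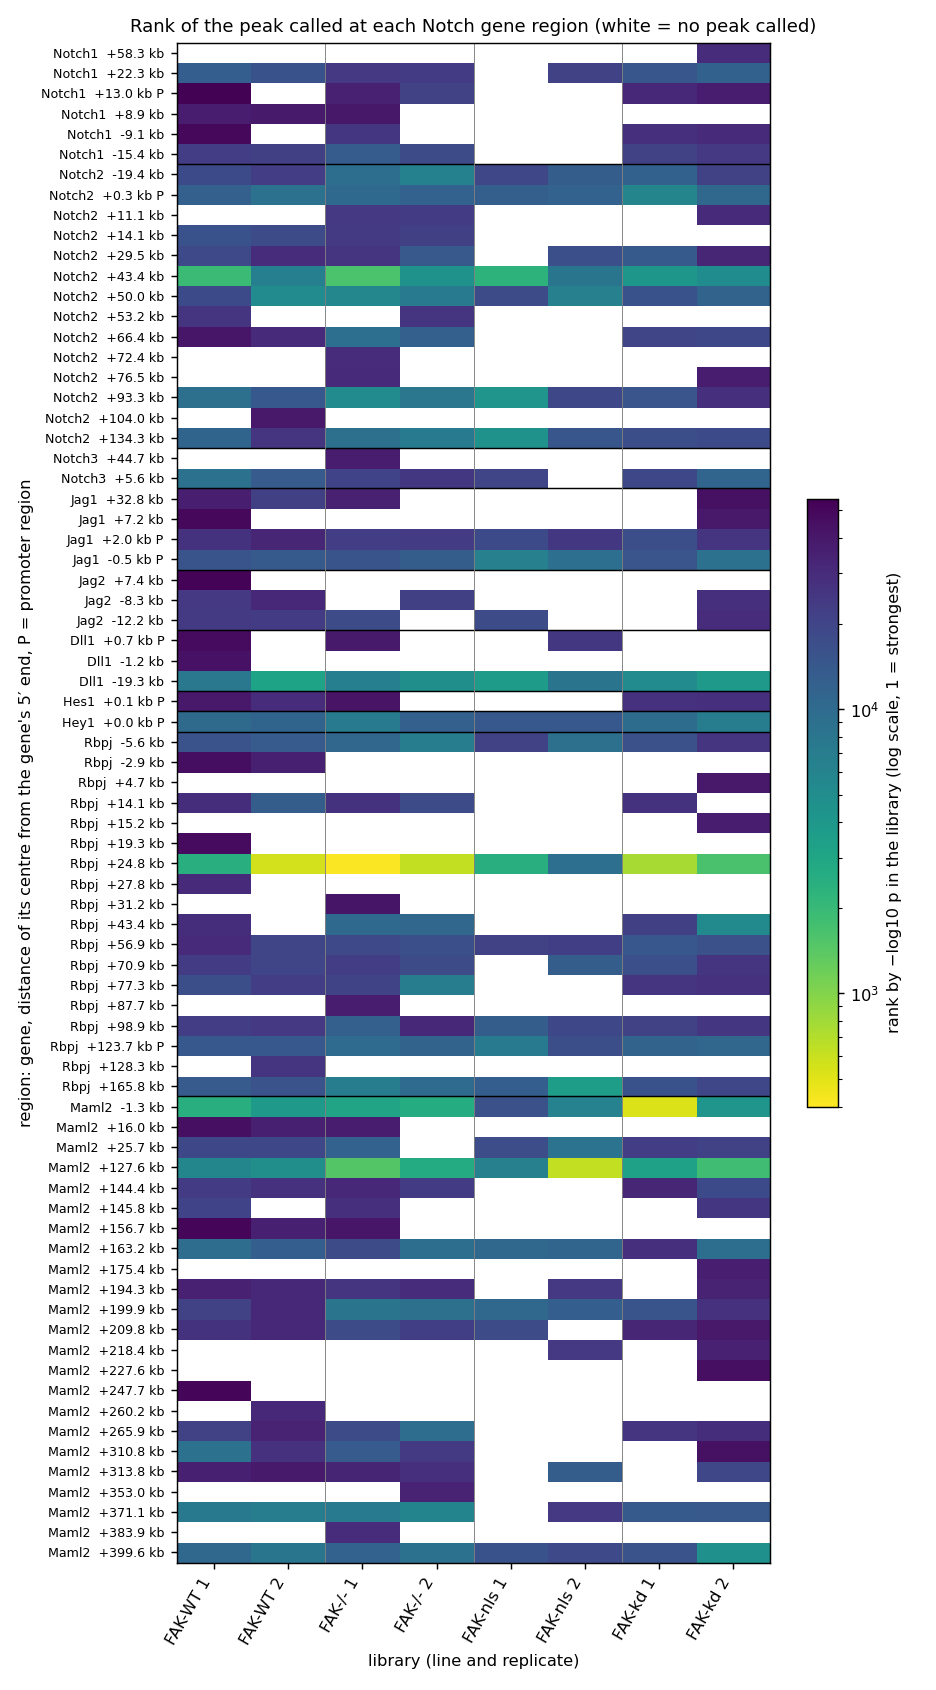
Heat map of the 75 Notch gene regions (rows, named by gene and by the distance of the region's centre from the 5' end of the gene in kb, with P for promoter regions) in the 8 libraries (columns), coloured by the rank of the region's best peak by -log10 p on a log scale, with white for no call. The 21 regions called in all 8 libraries form full rows, and the FAK-nls columns hold the most white. The Rbpj region at +24.8 kb has the best median rank, though not the best rank in every library.

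**Figure D2:**
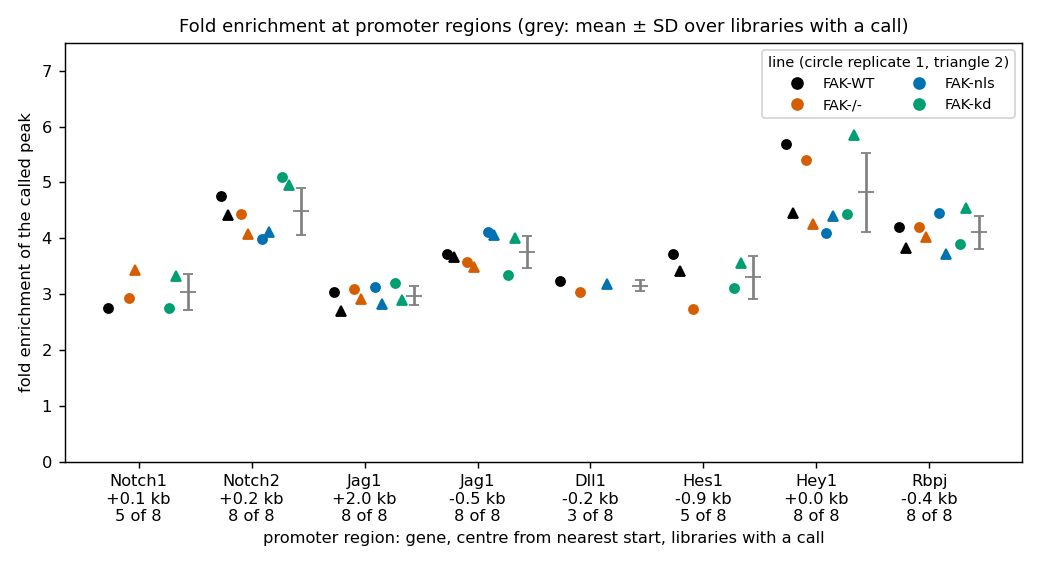
Fold enrichment of the called peak (vertical axis) at the 8 promoter regions of the Notch genes, with a point for each library with a call and the mean ± SD over those libraries in grey. Hey1 (4.82 ± 0.702) and Notch2 (4.48 ± 0.423) have the highest means, and points are missing where a library had no call at Notch1, Dll1 or Hes1. At Hes1 the points of FAK-WT replicate 1, FAK-/- replicate 1 and FAK-kd replicate 1 are peaks that ended before the promoter window.

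The promoters of 4 of the 10 genes (Notch2, Jag1, Hey1 and Rbpj) were called in all 8 libraries and those of 3 (Notch3, Jag2 and Maml2) in none. For all protein-coding genes these shares were 39.5% and 44.4%. All 4 promoters called in every library were also called in every library at equal peak number. Over all Notch gene regions, 21 of 75 (28%) were called in all 8 libraries, against 25.8% of all regions, and at equal peak number 13 of 46 (28.3%), against 32.7%. By position, 51 of the 75 regions were intronic, 10 upstream, and the remaining 14 overlapped exons. A single library had the call at 19 of the 75 (25.3%), against 28.6% of all regions.

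Across lines, the Notch genes held 58 and 49 called regions in FAK-WT, 56 and 43 in FAK-/-, 25 and 30 in FAK-nls, and 38 and 53 in FAK-kd. These are 0.103% to 0.131% of the regions called in each library. The means were 53.5 ± 6.36, 49.5 ± 9.19, 27.5 ± 3.54 and 45.5 ± 10.6 (SD, n = 2 libraries each), with the FAK-nls libraries below all others. At equal peak number the libraries held 34 and 29, 35 and 37, 25 and 27, and 29 and 25 regions, with means of 31.5 ± 3.54, 36 ± 1.41, 26 ± 1.41 and 27 ± 2.83. The 2 FAK-/- libraries then had the most regions of the 8, and the FAK-nls libraries overlapped those of FAK-kd.

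**Figure D3:**
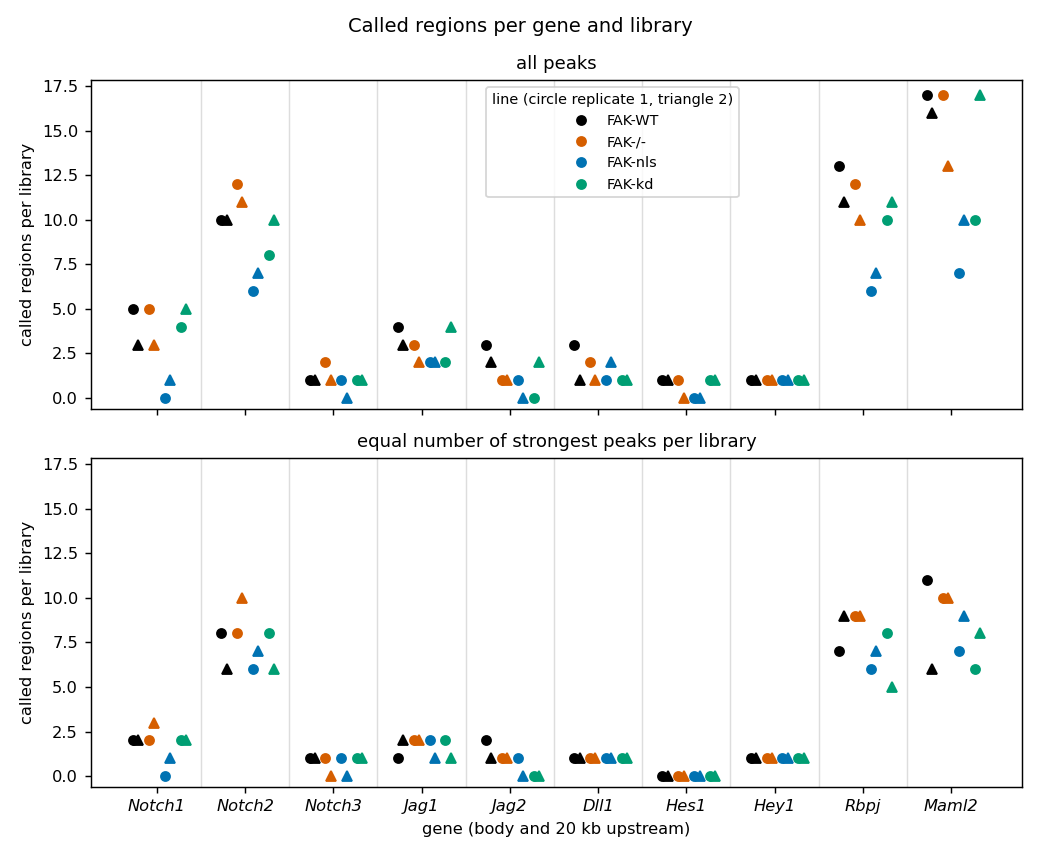
Number of called regions (vertical axis) at each of the 10 genes in each library, over all peaks (top) and at equal peak number (bottom), with a colour for each line and a shape for each replicate. FAK-nls libraries have the fewest Notch2, Rbpj and Notch1 regions over all peaks, and at equal peak number FAK-nls stands below all other libraries at Notch1 alone. The share of all genes with this pattern is not given.

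The design compares FAK-WT with each other line, and these 3 comparisons share the FAK-WT libraries. With 2 libraries against 2, an exact two-sided permutation test cannot give a p below 0.333, so regions are described by their calls beside the same share over all regions. Against FAK-/-, which asks what the absence of FAK changes, 1 of 69 Notch gene regions had a call in each FAK-WT library and none in FAK-/-, where the share over all regions was 5.41%. This was the Rbpj region 2.9 kb upstream of the gene (chr5:53463038-53463547, printed above, with an AP-1 match), called in FAK-WT at ranks of 46155 and 35731 and in none of the other 6 libraries. The reverse, a call in each FAK-/- library and none in FAK-WT, held for 1 of 69, against 1.31% of all regions. It was an intronic Notch2 region (chr3:98024265-98024914) at ranks of 24398 and 23220 in FAK-/-, also called in FAK-kd replicate 2 at 30196. At equal peak number no region was called in FAK-WT only (0 of 43, against 4.11%) and 4 of 43 (9.3%) were called in FAK-/- alone of the pair, against 3.95% of all regions. The first 3 of these by rank were intronic regions of Rbpj (chr5:53509165-53509921, ranks 10197 and 10876), Notch2 (chr3:98079650-98080144, 9066 and 12100) and Maml2 (chr9:13507483-13508069, 17497 and 22262), and the fourth was the Jag1 region 2.0 kb from its start. All 4 had a peak in at least 1 FAK-WT library of a poorer rank than 24383. Without FAK-WT replicate 1 or 2 the FAK-WT count over all peaks was 4 and 7, and the reverse count 3 and 1. Without FAK-/- replicate 1 or 2 the FAK-WT count was 8 and 2, and the reverse count 2 and 7. Shares over all regions with a library left out are not given, so these counts show only how far the numbers move.

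Against FAK-nls, which asks about FAK that is kept from the nucleus, 15 of 62 Notch gene regions (24.2%) had a call in each FAK-WT library and none in FAK-nls, where the share over all regions was 18.4%. They lay at Maml2 (5), Rbpj (3), Notch1 (2), Notch2 (2), Jag1 (1), Jag2 (1) and Hes1 (1, its promoter region). At Hes1 the peak of FAK-WT replicate 1 ended before the promoter window. The best-ranked was an intronic Notch2 region (chr3:98027305-98027905), at ranks of 15873 and 17769 in FAK-WT and 23966 and 21771 in FAK-/-, with no call in the FAK-nls or FAK-kd libraries. The second was a Notch1 region at -15.4 kb (chr2:26531846-26532210), at 22346 and 21446 in FAK-WT, 13114 and 17491 in FAK-/-, and 21027 and 24284 in FAK-kd. The third was the intronic Rbpj region at +77.3 kb (chr5:53543056-53543892), whose AP-1 match is printed above, at 16740 and 22399 in FAK-WT, 20210 and 6998 in FAK-/-, and 25645 and 27218 in FAK-kd. Both FAK-nls libraries lacked these 3 regions, which the FAK-/- libraries had. The reverse held for 0 of 62, against 0.297%. The FAK-nls lists were the shortest, and at equal peak number 4 of 42 (9.52%) were called in FAK-WT only, against 5.66% of all regions, and 0 of 42 in FAK-nls only, against 4.87%. The 4 were the same Notch2, Notch1 and Rbpj +77.3 kb regions and a Maml2 intronic region (chr9:13668749-13669287), at ranks of 7556 and 6964 in FAK-WT, 7419 and 5914 in FAK-/-, 13664 and 13826 in FAK-kd, and 24461 in FAK-nls replicate 2. Leaving out FAK-WT replicate 2 raised the count over all peaks from 15 to 26. A single FAK-WT library makes such a pattern easier to meet, and the share over all regions in that setting is not given.

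Against FAK-kd, which asks about kinase activity, 5 of 69 regions (7.25%) had a call in each FAK-WT library and none in FAK-kd, against 4.76% of all regions, and the reverse held for 0 of 69, against 0.912%. The best-ranked was the Notch2 region that was also missing in FAK-nls (chr3:98027305-98027905). The second was the intronic Notch1 region at +8.9 kb (chr2:26507394-26508080, printed above), at ranks of 37863 and 38816 in FAK-WT and 40046 in FAK-/- replicate 1. The third was an intronic Maml2 region (chr9:13312882-13315025), at 44544 and 35667 in FAK-WT and 38125 in FAK-/- replicate 1, and the other 2 were at Rbpj and Maml2. All but the Notch2 region ranked at 35667 or beyond in both FAK-WT libraries. FAK-kd replicate 1 held 32938 peaks and FAK-kd replicate 2 held 45937, and both lacked these calls. At equal peak number 3 of 41 (7.32%) were called in FAK-WT only, against 3.69%, at Notch2, Rbpj and upstream of Jag2 (chr12:112941733-112942219), and 2 of 41 (4.88%) in FAK-kd only, against 3.15%. The last 2 were the Notch2 and Rbpj regions that were also called in FAK-/- and not in FAK-WT at equal peak number. Without FAK-WT replicate 1 or 2, or FAK-kd replicate 2, the FAK-WT count over all peaks was 8, 12 and 11. The reverse count was 3 and 0 without FAK-WT replicate 1 or 2, and 8 and 0 without FAK-kd replicate 1 or 2. Shares over all regions with a library left out are not given, so these counts show only how far the numbers move.

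Where the 4 libraries of a comparison all had the call, ranks were compared too. Against FAK-/-, 3 of 37 had a better rank in both FAK-WT libraries than in both FAK-/- libraries (18.8% of all regions) and 16 of 37 (43.2%) a poorer one (22.3% of all regions). The 3 were the intronic Notch1, Notch2 and Notch3 regions given above, and the 16 lay at Maml2 (6), Notch2 (4), Rbpj (4), Notch1 (1) and Jag1 (1). Rank depends on how many peaks a library has, and with the rank divided by the number of peaks the split became 7 of 37 better (18.9%, against 27.8% of all regions) and 6 of 37 poorer (16.2%, against 11.9%). The shares over all regions moved the same way with the scale. On both scales the better share of the Notch gene regions was below that of all regions. The poorer share was above that of all regions by rank, and near it on the divided scale. Regions of the same gene are not independent, and these differences in share were not tested. Without FAK-WT replicate 1 or 2, or FAK-/- replicate 1 or 2, the undivided better counts were 8, 6, 5 and 9. In the same order the poorer counts were 21, 25, 23 and 22, and shares over all regions are not given for these settings. Against FAK-nls, 3 of 22 were better in FAK-WT (17.3% of all regions), at the Hey1 promoter and at both ends of Maml2, and 6 of 22 poorer (29.7%). Divided by the number of peaks these were 9 (51%) and 0 (5.08%). Against FAK-kd, 7 of 34 were better (15.9%) and 7 of 34 poorer (20.1%), and divided by the number of peaks 7 (23.6%) and 3 (9.78%). The Hey1 and Hes1 promoter regions were among the poorer ones in FAK-WT by undivided rank. At Hes1 the ranks of FAK-WT replicate 1 and FAK-kd replicate 1 came from peaks that ended before the promoter window. Ranked by fold enrichment in place of -log10 p, 3 of 37 were better (15.4% of all regions) and 12 of 37 poorer (22.3%) against FAK-/-. In the same ranking 1 of 22 was better (13.3%) and 6 of 22 poorer (39%) against FAK-nls, and 7 of 34 were better (12.8%) and 5 of 34 poorer (21.2%) against FAK-kd. The better count against FAK-nls was thus 3, 1 or 9, depending on how peaks were ranked.

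**Figure D4:**
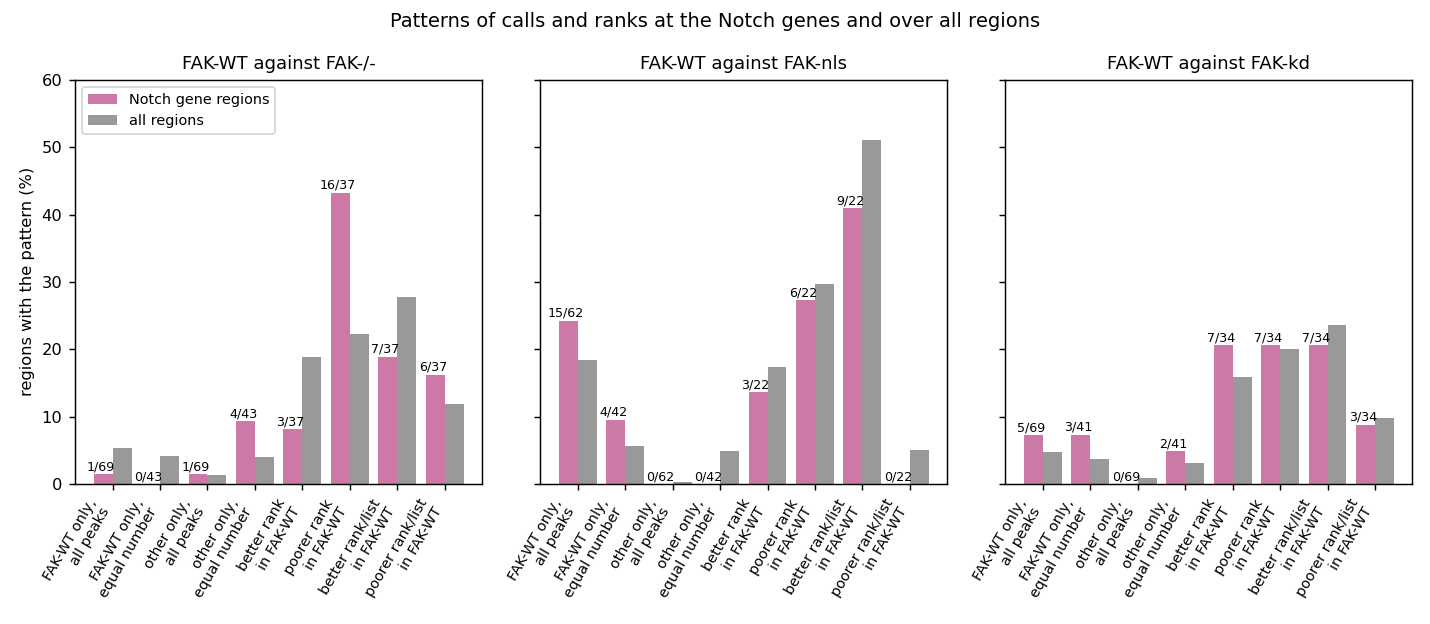
Share of Notch gene regions (pink, with counts) and of all regions (grey) that had each pattern, in percent, for FAK-WT against FAK-/-, FAK-nls and FAK-kd. The bars show calls in both libraries of 1 line only, over all peaks and at equal peak number, and regions ranked better or poorer in FAK-WT, by rank and by rank divided by the number of peaks in the list; poorer ranks against FAK-/- make up 43.2% of Notch gene regions and 22.3% of all regions by rank, and 16.2% and 11.9% on the divided scale.

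The called length per gene at equal peak number was tested across all 4 lines. For each gene the share of its variance that lay between lines was compared, in an exact permutation test, with that of all 105 divisions of the 8 libraries into 4 pairs, where the smallest possible p is 0.00952. None of the 9 Notch genes tested reached that p, against 335 of 14171 genes (2.36%), and none had p under 0.05, as did 10.7% of genes. This second count changed when 1 library was left out. The line with a single remaining library then gave no spread of its own, and the spread within lines came from the other lines. In the exact permutation test without FAK-WT replicate 1 or 2, Notch2 had p = 0.019 and 0.00952 (8.65% and 10.5% of all genes were under 0.05). Without FAK-/- replicate 1 both Notch1 and Hey1 had an exact permutation p of 0.0286 (8.71%), and without FAK-/- replicate 2 Hey1 had 0.0381 (8.94%). Dll1 had an exact permutation p of 0.0476 without FAK-kd replicate 2 (10.5%), and leaving out any of the other 3 libraries gave no Notch gene under 0.05. These p-values are not adjusted. The length tested for Dll1 was that of the region 19 bp from the start of Fam120b, its only region at equal peak number. Hes1 had no called length and was not tested. The largest share was that of Hey1 (91.5%, exact permutation p = 0.0571, 6 of 105 divisions as large, Benjamini-Hochberg adjusted p = 0.444), where FAK-WT was longest at 1006 ± 28.3 bp and FAK-nls shortest at 642 ± 0.707 bp (SD, n = 2 libraries). The means of FAK-/- (698 ± 84.1 bp) and FAK-kd (804 ± 79.9 bp) lay between them, and the libraries of these lines overlapped. FAK-/- replicate 1, at 639 bp, was shorter than both FAK-nls libraries. Notch1 had a share of 62.2% (exact permutation p = 0.0857, adjusted p = 0.464) and Notch2 of 67.2% (exact permutation p = 0.219, adjusted p = 0.538). Notch2 was shortest in FAK-nls, at 3283 ± 43.8 bp, against 5416 ± 1800 in FAK-WT, 5590 ± 97.6 in FAK-/- and 4474 ± 166 in FAK-kd. Equal peak number fixes how many peaks enter and not their length. Over the whole lists, peaks were on average longest in both FAK-WT libraries and shortest in both FAK-nls libraries. FAK-WT lists held 33.7 and 24.1 Mb in 53703 and 39036 peaks, and FAK-nls lists 13.2 Mb each in 24383 and 24959. Whether the Hey1 and Notch2 lengths went beyond this shift was not tested. For Rbpj and Maml2 the shares were 56.5% and 37.7% (exact permutation p = 0.314 and 0.562). The median share was 62.2% over the 9 genes and 56% over all genes, and none of the 14171 genes passed an adjusted p of 0.05 in the exact permutation test (lowest adjusted p = 0.403, with 1517 genes under 0.05 before adjustment).

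**Figure D5:**
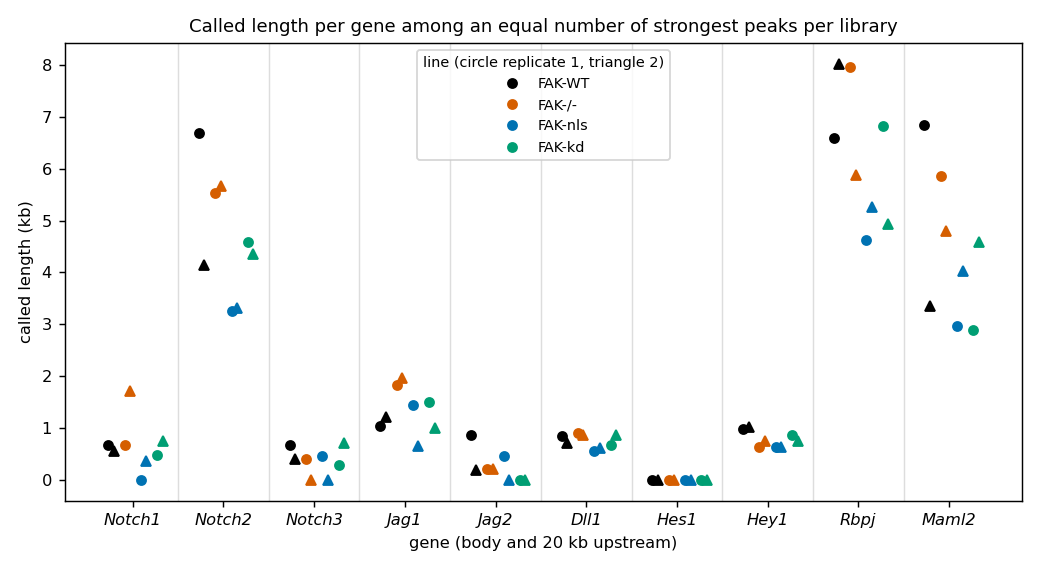
Called length in kb (vertical axis) at each of the 10 genes in each library among its 24383 strongest peaks, with a colour for each line and a shape for each replicate. Hey1 is longest in both FAK-WT libraries, Notch2 is shortest in both FAK-nls libraries, and Hes1 is at 0 in all 8. Over the whole lists, peaks were also on average longest in FAK-WT and shortest in FAK-nls.

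The promoters of 47 other genes of the pathway were called in all 8 libraries for 23 genes (48.9%, against 39.5% of all protein-coding genes) and in none for 10 (21.3%, against 44.4%). By role, a call in all 8 libraries, the state of 39.5% of all promoters, was found for 7 of 8 nuclear partners, among them Maml1, Spen and Ep300, for 7 of 9 proteases that cut the receptor, among them Adam10, and for 6 of 10 genes of ubiquitin and trafficking, among them Numb and Fbxw7. It held for 2 of 6 genes of receptor modification (Rfng and Pofut1) and for 1 of 6 further ligands and receptors (Dlk2), and Notch4, Dll3 and Dll4 were called in none. None of 8 further target genes was called in all 8 libraries. Of these, Hes6 was called in 7, Hes7 and Nrarp in 6, Hey2 in 1, and Hes2, Hes3, Hes5 and Heyl in none. Against FAK-/-, 0 of 37 pathway promoters called in any of the 4 libraries were called in FAK-WT only (1.27% of all genes), and 1, that of the gamma-secretase subunit gene Aph1c, in FAK-/- only (0.756%). Against FAK-nls, 4 of 34 were called in FAK-WT only (6.4%), those of Furin, Dtx3, Hes7 and Nrarp, and none in FAK-nls only (0.165%). The last 3 were called in both libraries of the other 3 lines and in neither FAK-nls library. Against FAK-kd, 1 of 35 was called in FAK-WT only (1.03%), that of Furin, which encodes the protease that matures Notch receptors, and none in FAK-kd only (0.619%). When libraries were limited to equal peak number, the promoters of Furin, Dtx3 and Hes7 were called in 0 libraries, that of Aph1c in 1 and that of Nrarp in 3. Against FAK-nls, 0 of 28 were then called in FAK-WT only (1.11% of all genes) and 1 of 28, that of Dtx4, in FAK-nls only (4.61%). Against FAK-/-, 1 of 27, that of a protease gene, was called in FAK-WT only (1.86%) and 0 of 27 in FAK-/- only (1.74%). Against FAK-kd, 0 of 29 were called in FAK-WT only (0.815%) and 2 of 29, those of Nrarp and Dtx4, in FAK-kd only (2.23%).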

How the data were processed

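ATAC-seq libraries, 2 of each of 4 SCC lines, were represented by 1 peak list each. According to the study's methods, the authors aligned reads to mm10 with the bcbio pipeline and called broad peaks in MACS2 (2.1.1 in the submitters' processing notes) with a stated q of 0.05, a shift of the reads and an extension that centre each cut site. The deposited -log10 q values went down to 1, and 0.784% to 3.83% of peaks per library had a q above 0.05. Each deposited list gave the length of a peak in bp as another measure, the pileup signal at its highest coverage, -log10 p, the fold enrichment ratio over background and -log10 q. Each list held 1 library, and read totals are not used here. Peaks outside chromosomes 1 to 19, X and Y (15 to 25 per library) were left out.

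Peaks were merged into regions where they overlapped by at least 1 bp, in Python 3.11.15 with numpy 2.4.6 and pandas 2.3.3, and assigned to the gene body and 20 kb upstream in GENCODE vM21. Promoters ran from 500 bp before to 2000 bp after the starts of the best-supported protein-coding transcripts. The functions were tested on simulated data. The 10 genes were always named, with their promoter regions and the best-ranked region of each gene outside promoters. Best-ranked here means the best median rank over the libraries with a call. For each set of regions called in 1 line of a comparison, up to 3 regions were named by their poorer rank. A Maml2 region upstream of the gene was named outside these rules. Sequences were read from the reference genome of the same build. No promoter sequence is printed for Hes1 or Hey1. Members and gene lists were chosen with earlier results of these data known. Alternatives were equal peak number, a -log10 q of at least 3, peaks set to 500 bp, calls only where 50% of a region was covered, 10 kb upstream, other rankings and leaving out each library.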

Additional observations from a re-analysis of the deposited data

How the results depend on the processing

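Peak lists hold calls without read depth, so a missing call may lie just under the threshold, and with 2 libraries per line most counts moved with a single library. Over all peaks, the regions called in FAK-WT only numbered 1 against FAK-/-, 15 against FAK-nls and 5 against FAK-kd. At equal peak number these became 0, 4 and 3, and the regions called in the other line only went from 1 to 4 against FAK-/- and from 0 to 2 against FAK-kd. With a -log10 q of at least 3, regions called in FAK-/- only became 0 and those in FAK-WT only against FAK-kd became 3. Where a call required 50% cover, regions called in FAK-WT only against FAK-/- became 2, regions in FAK-/- only became 2 and regions in FAK-kd only became 2. Regions called in all 8 libraries went from 21 to 13 at equal peak number, 8 with a -log10 q of at least 3 and 10 with 50% cover. Fewer peaks enter at equal peak number and with a -log10 q of at least 3, and for 50% cover the cause was not tested. Peaks set to 500 bp, and 10 kb upstream, moved none of these counts by over 1.5 times.

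Leaving out FAK-WT replicate 1, FAK-WT replicate 2, then replicate 1 and replicate 2 of the other line, the FAK-WT only count was 4, 7, 8 and 2 in the FAK-/- comparison. It was 18, 26, 18 and 21 in the FAK-nls comparison and 8, 12, 6 and 11 in that of FAK-kd. The counts of regions called in the other line only were 3, 1, 2 and 7 for FAK-/-, then 0, 0, 1 and 0 for FAK-nls, and 3, 0, 8 and 0 for FAK-kd. With all libraries, 19 regions were ranked apart in the FAK-/- comparison, 9 in that of FAK-nls and 14 in that of FAK-kd. With a library left out these were 29, 31, 28 and 31, then 17, 13, 23 and 18, and lastly 23, 26, 28 and 26, an alternative chosen after seeing the data. A single library on 1 side makes such patterns easier to meet, and the shares over all regions in these settings are not given. Regions called in all remaining libraries numbered 21 to 25.

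With all peaks no Notch gene was at the smallest p of the permutation test, against 2.47% of all genes. The count was also 0 with region counts (0.0284% of all genes) and with 10 kb upstream (2.28%). With region counts almost no gene reached that p, so this 0 says nothing about the Notch genes. Leaving out each library gave 0 to 1, the 1 being Notch2 without FAK-WT replicate 2. With the replicate block, where lines were permuted within the replicate number, it was also 0, against 6.49% of all genes. Deviations of same-numbered libraries correlated between -0.18 and 0.077, so the numbers were not taken as pairs.

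Pathway promoters called in FAK-WT only went, at equal peak number (chosen after seeing the data), from 0 to 1 against FAK-/-, from 4 to 0 against FAK-nls and from 1 to 0 against FAK-kd. Those called in the other line only went from 1 to 0, from 0 to 1 and from 0 to 2.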
